A study of Drosophila melanogaster with 15 samples.

Results

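The untreated control males of a fruit fly study are described here on their own: 4 arrays of 15 in the series, chosen by their labels and set against no other condition. Each array holds the RNA of 25 whole bodies of Drosophila melanogaster males, aged 3 days, with the genotype given as control and no treatment. The labels call the 4 arrays biological replicates and name neither the control stock nor its relation to the transgenic lines. Each pool has a single array, so the spread described below is that between arrays. Differences between pools of flies and in the handling of RNA or arrays cannot be told apart in it. A pool named below stands for its array. The flies were grown at 25 °C on cornmeal-molasses medium that contained an antibiotic. The other 11 arrays hold 4 untreated lines that carry Dsup, a nucleosome-binding protein of a tardigrade, the same lines after 1000 Gy of ionizing radiation, and 3 irradiated control pools. They enter where the spread, the order of arrays or the ranking by level within a group was looked at again. Otherwise they enter only where array controls and the scale of levels are described. No level of a gene was compared between groups. Each Dsup array is a separate line, and no label read here names the promoter that drives the transgene.

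A whole male fly mixes all of its tissues, and the transcripts that dominate it come from large or highly specialised ones. Flight and leg muscle supply contractile proteins and mitochondria, the gut secretes digestive enzymes, and the accessory glands and ejaculatory bulb load the seminal fluid. The testis has a programme of its own for building sperm, and oenocytes under the cuticle make the waxy hydrocarbons that hold water. In whole bodies, a change in the number of cells of a type and a change in RNA per cell cannot be told apart.

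Levels are the deposited log2 values of 3' expression array probe sets, given below as the mean of 4 arrays with the SD. Leaving out 183 array control probe sets kept 18769, of which 13647 carry 1 gene symbol, 402 several and 4720 none. With the brightest probe set standing for each gene, 11982 genes were ranked, from 0.997 to 12.52 with a median of 5.60. The signal of a probe set depends on its probes as well as on its transcript, so a rank of genes is a rank of array signal. The number of arrays, not a depth, limits the precision, and an SD from 4 arrays has a 95% interval from 0.566 to 3.73 times its value. Each pair of arrays correlated across genes with a Pearson r between 0.986 and 0.993, a description in which all genes of a pair share both arrays.

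Array controls differed between the 4 arrays. The 18S ribosomal RNA 3' probe set read 11.96, 12.39 and 12.39 in arrays 1 to 3 and 7.66 in array 4. The log2 difference between the 3' and 5' probe sets of the actin control, a measure of RNA integrity and labelling, was 0.702, 0.869, 1.105 and 1.302 in arrays 1 to 4. Spiked bacterial and phage controls split the arrays in another way. The bioD 5' spike read 8.62, 8.64, 9.72 and 9.61, and the cre 5' spike 10.59, 10.61, 11.71 and 11.68, both higher in arrays 3 and 4. The part of these array controls in the results below was not tested.

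Genes of energy metabolism and muscle held many of the first 25 places in the ranking by level. By list median, cytosolic ribosomal proteins stood higher, at percentile 99.3, against 97.7 for oxidative phosphorylation and 98.3 for muscle. Cyp4g1, the oenocyte cytochrome P450 that makes the final step of cuticular hydrocarbon synthesis, was the highest gene of all at 12.52 ± 0.0434 (SD, n = 4), with 12.47, 12.50, 12.54 and 12.57 in arrays 1 to 4. The ADP/ATP carrier of the mitochondrial inner membrane, sesB, was next, with 12.29, 12.43, 12.53 and 12.64. The arrays of Cyp4g1 and sesB overlapped, so their order does not exceed the spread. The 25 highest genes spanned 11.85 to 12.52 with a median SD of 0.108, and many neighbours in the ranking differ by less than that SD.

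The subunits of mitochondrial ATP synthase filled 5 of the first 21 places. The catalytic beta subunit ATPsynbeta read 12.33, 12.43, 12.46 and 12.31, and the alpha subunit blw 12.38, 12.30, 12.45 and 12.27. Both varied by less than 1.2-fold between the highest and lowest array. ATPsynC, the ring subunit, averaged 12.24 ± 0.108, ATPsynF 12.01 ± 0.0495 and ATPsynB 11.98 ± 0.0788. The complex I subunit ND-MLRQ was at 12.02 ± 0.0881. Of the 74 measured genes of oxidative phosphorylation, 22 were among the 100 highest genes and 52, or 70.3%, among the 500 highest, against 4.17% of all genes. Glycolysis had 3 of 12 among the first 100 and 9 among the first 500. Gapdh1, glyceraldehyde-3-phosphate dehydrogenase, read 12.15, 12.06, 12.12 and 12.11, and Eno, enolase, averaged 11.85 ± 0.0478. Pepck1, the phosphoenolpyruvate carboxykinase of gluconeogenesis, stood at 12.04 ± 0.119.

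**Figure D1:**
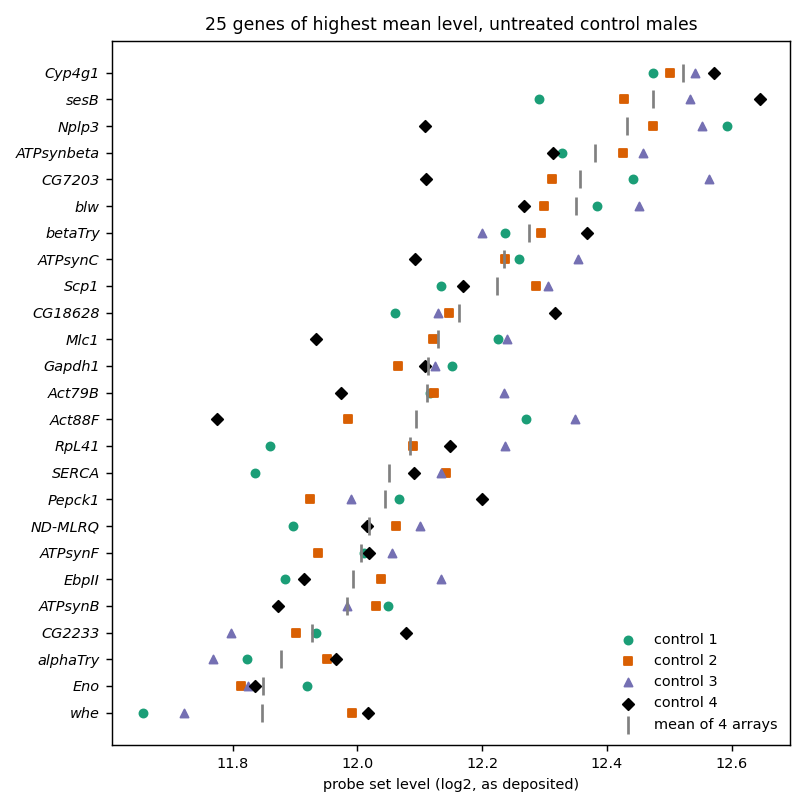
The 25 genes of highest mean level, with the log2 level of each untreated control array as a point and the mean of the 4 arrays as a grey tick. Cyp4g1 leads at 12.52, whe closes at 11.85, and array 4 is the lowest point for Nplp3, CG7203 and Act88F.

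The plot of the 25 highest genes shows how tightly most of them repeat, and where array 4 falls away. Nplp3, a precursor of secreted peptides, read 12.59, 12.47, 12.55 and 12.11, and the uncharacterised CG7203 read 12.44, 12.31, 12.56 and 12.11. In both, array 4 lay below the other arrays, and without it the SD fell from 0.221 to 0.0604 for Nplp3 and from 0.195 to 0.126 for CG7203. Of the first 25 genes, 18 belong to a gene list used here, as do 6 of the 25 most variable genes. Those of the first 25 outside a list also include Scp1, a sarcoplasmic calcium-binding protein, at 12.22 ± 0.0847. The uncharacterised CG18628 and CG2233, at 12.16 ± 0.109 and 11.93 ± 0.115, are outside one as well.

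Muscle was the tissue whose markers ranked highest after the ejaculatory bulb. All 28 measured muscle genes lay at or above 5.01, the 40th percentile of gene means that serves as the floor for the spread, 9 of them were among the 100 highest genes and 21 among the 500 highest. The myosin light chain gene Mlc1 read 12.23, 12.12, 12.24 and 11.93. Act79B, an actin of tubular muscle, averaged 12.11 ± 0.107, and SERCA, the calcium pump of the sarcoplasmic reticulum, 12.05 ± 0.145. Act88F, the actin of the indirect flight muscle, varied more than these, with 12.27, 11.99, 12.35 and 11.77. Its highest and lowest arrays differed 1.49-fold. Array 4 was the lowest array for 16 of the 28 muscle genes (57.1%, against 24.7% of all 7189 genes at or above the floor).

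The reproductive tract gave strong signals from its glands and from sperm. Of the 6 measured genes of the ejaculatory bulb and duct 3 sat in the top 100 and 5 in the top 500. These 3 encode bulb proteins, with EbpII at 11.99 ± 0.116, Ebp at 11.82 ± 0.076 and EbpIII at 11.53 ± 0.108. EbpII and Ebp are neighbours in the genome, 1 of 2 adjacent pairs in the top 100. Of 40 measured accessory gland genes, which encode proteins transferred to the female at mating, 13 were in the top 500 and the median lay at percentile 91.3 of genes. Mst57Da read 11.48, 11.58, 11.54 and 11.40, and Acp98AB 11.16, 11.45, 11.43 and 11.13. The testis list had 0 genes in the top 100 and 13 of 41 in the top 500. Its highest member, Mst84Dc, a cysteine-rich protein of the sperm tail, averaged 11.15 ± 0.175 and missed the first 100 by a single place. The germline aminopeptidase S-Lap7 averaged 11.02 ± 0.227 and ocn, the testis gene ocnus, 11.04 ± 0.21.

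Digestive genes came next among tissues. Of 50 measured midgut genes, 4 were in the top 100 and 18 in the top 500, with a median at percentile 90.8. The trypsin genes betaTry and alphaTry averaged 12.27 ± 0.0733 and 11.88 ± 0.0964, and the maltase Mal-A1 11.56 ± 0.101. The trypsin genes are close copies of each other, so their signals may share transcripts. The fat body list had 5 of 25 genes in the top 500, led by FASN1, a fatty acid synthase, at 10.64 ± 0.157, Desat1, a fatty acid desaturase, at 10.53 ± 0.389 and apolpp, the precursor of lipophorin, at 10.46 ± 0.281. In the list of feeding and starvation genes, which shares Desat1 and FASN1 with the fat body, 5 of 20 were in the top 500. The oenocyte list had 2 of 12 there, Cyp4g1 and Desat1.

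Sensory and nervous tissue reached lower places. The photoreceptor list had 3 of 20 genes in the top 500 (15%, against 4.17% of all genes). These were the arrestins Arr2 at 11.36 ± 0.17 and Arr1 at 10.45 ± 0.324, which switch off activated rhodopsin, and retinin, a protein of the corneal lens, at 10.29 ± 0.369. The neuron list had 0 of 27 in the top 500 and a median at percentile 65.3. Snap25, cpx and Gad1, for synaptic vesicle fusion and for making the transmitter GABA, were its highest members at 9.15 ± 0.243, 9.10 ± 0.289 and 9.03 ± 0.176. In glia, Gs2, a glutamine synthetase, averaged 10.48 ± 0.0697 and was the 1 gene of 8 in the top 500.

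Other sensory, excretory and blood genes had single members near the top. The antenna list had 3 of 30 genes in the top 500, led by the odorant-binding protein genes Obp99c at 11.58 ± 0.198 and Obp44a at 10.97 ± 0.037. The whole odorant-binding protein family had 4 of 47 (8.51%, against 4.17% of all genes), with Obp56g at 11.44 ± 0.111. In the Malpighian tubule, the fly's kidney, pst was the 1 gene of 13 (7.69%) in the top 500, at 10.55 ± 0.28. Counts this small, near the share of all genes, say little about a tissue. The hemocyte list had 3 of 21, and these were Nplp2 at 11.78 ± 0.2 and the ferritin chains Fer1HCH at 11.37 ± 0.0926 and Fer2LCH at 10.99 ± 0.0766. Hml, hemolectin, a defining hemocyte marker, was at 5.96 ± 0.371, near the median of all genes, so the top places of that list do not come from its most specific members.

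Housekeeping machinery differed widely by complex. Of 87 listed cytosolic ribosomal protein genes, 35 were measured. Among these 35, 21 were in the top 100 and 28 in the top 500, with a median at percentile 99.3. RpL41 led them with 11.86, 12.09, 12.24 and 12.15. Mitochondrial ribosomal proteins had 0 of 69 in the top 500 and a median at percentile 65.1. Translation factors had 8 of 15, with eEF5, formerly called eIF5A, at 11.33 ± 0.0313. Chaperones had 1 of 13 (7.69%), Hsc70-4, the constitutive Hsp70 relative, at 11.17 ± 0.21. The cytoskeleton list had 3 of 6 and the proteasome 2 of 26 (7.69%), with the cofilin gene tsr at 10.17 ± 0.145 and the lid subunit Rpn6 at 9.60 ± 0.0598. For chaperones and the proteasome these counts lie near the 4.17% of all genes in the top 500.

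Defence and detoxification genes were spread over the whole range. Among 22 measured antimicrobial and humoral immunity genes 3 reached the top 500, the bomanin genes BomBc2 at 10.75 ± 0.158 and BomS2 at 9.83 ± 0.217, and IM33 at 10.45 ± 0.133. Glutathione S-transferases had 5 of 34, led by GstS1 at 11.02 ± 0.261 and GstD1 at 10.82 ± 0.168. Cytochromes P450 had 5 of 80 (6.25%, near the 4.17% of all genes), and below Cyp4g1 came Cyp6g1, known for insecticide resistance, at 10.31 ± 0.14. Cuticle proteins had 3 of 103, with Cpr49Ae at 11.15 ± 0.236, the last gene of the top 100, and a median at percentile 15.9.

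Lists for the other sex and for earlier stages were near the bottom, which checks the labels. Of 20 measured female and ovary genes 1 lay at or above the floor, grk, which patterns the egg, at 5.51 ± 0.281. The yolk protein gene Yp3 was at 4.78 ± 0.265 and the chorion gene Cp15 at 4.62 ± 0.0308, both below the floor. All 6 measured larval and pupal genes were below the floor, with Edg84A the highest at 2.45 ± 0.177. The salivary gland list, largely of larval glue genes, had 1 of 11 above it, Amyrel at 5.72 ± 0.0493. The 5 Turandot stress genes lay below the floor as well, with TotC at 2.68, 4.66, 5.17 and 1.75.

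Genes of the Y chromosome and of dosage compensation were weak. Of 7 measured fertility genes of the Y chromosome 1 lay above the floor, Pp1-Y2 at 5.03 ± 0.133, while ORY was at 3.27 ± 0.233. The dosage compensation gene msl-2, the 1 gene of its list measured, was at 5.06 ± 0.213, just above the floor. The label of male whole bodies therefore rests on the glands, the testis and the low egg genes, not on Y-linked signal.

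**Figure D2:**
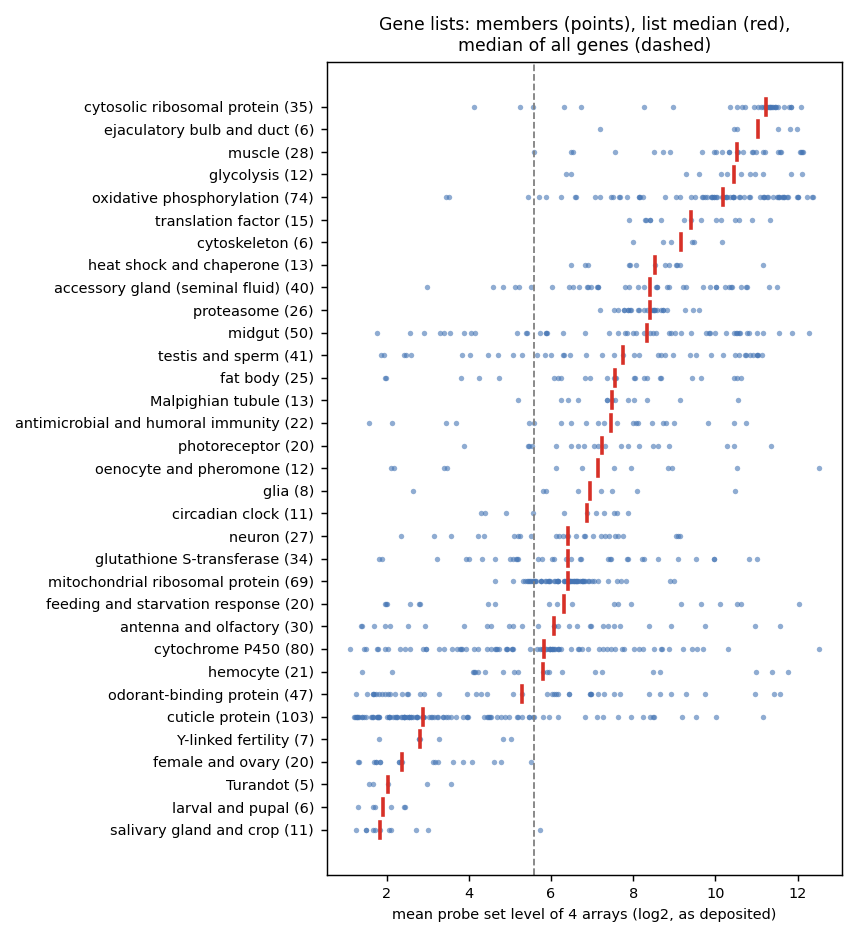
Mean log2 level over 4 arrays of every measured member of each gene list (points, number measured in parentheses), with the list median in red and the median of all 11982 genes, 5.60, as a dashed line. Cytosolic ribosomal protein, ejaculatory bulb and muscle genes lie at the top, and larval, Turandot and ovary genes at the bottom.

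The plot of lists by level also shows how broad most lists are. Midgut genes ranged from 1.76 to 12.27 and testis genes from 1.87 to 11.15, while the proteasome stayed between 7.19 and 9.60. In all, 73 of the 100 highest genes belong to at least 1 list, as do 23 of the 100 most variable genes. The share of all genes that belong to a list is not given here, so these counts show no excess over it. The 100 highest genes ranked high in the other groups too. Of these, 93 were in the top 100 of the untreated Dsup lines, 86 in that of irradiated controls and 84 in that of irradiated Dsup lines. The last places inside the top 100, Jon65Aiv and Cpr49Ae, and the first outside it, Mst84Dc and Mpcp1, all read 11.15 to 2 decimals, so membership at that edge means little.

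Most genes repeated closely between arrays. Among the 7189 genes at or above the floor, the median SD was 0.161 and the highest and lowest array of a gene differed by a median of 1.28-fold. A range of at least 2-fold was seen in 341 genes, or 4.74%, and a range under 1.2-fold in 2114, or 29.4%. Spread hardly depended on level: the median SD lay between 0.158 and 0.167 in each of the upper 6 deciles of level. The 100 highest genes were quieter, with a median SD of 0.0999. That 0 of them were among the 100 most variable says little, as lists of 100 from 7189 genes would share few by chance. Of the 500 highest genes, 29 were among the 500 most variable, which hold 6.96% of the genes ranked.

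**Figure D3:**
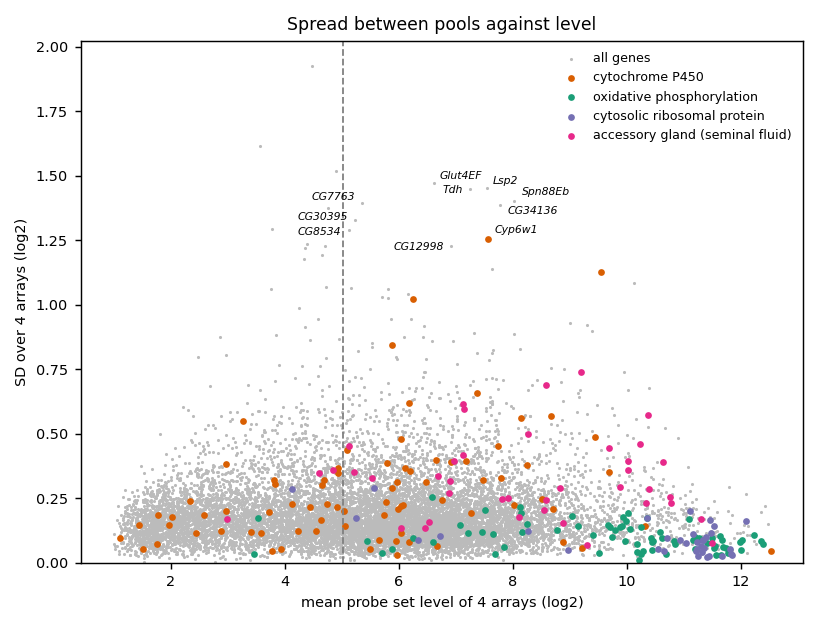
SD over the 4 untreated control arrays against mean log2 level for all genes (grey), with 4 gene lists in colour, the 10 genes of largest SD at or above the floor named, and the floor of 5.01 as a dashed line. Oxidative phosphorylation and ribosomal protein genes lie low at high levels, and single cytochromes P450 stand high.

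Some lists had none of the most variable genes, and the plot of spread against level shows 2 of them. Genes of cytosolic ribosomal proteins (0 of 34 members at or above the floor), oxidative phosphorylation (0 of 72), mitochondrial ribosomal proteins (0 of 68), the proteasome (0 of 26) and the testis (0 of 32) had no member among the 500 most variable genes, which hold 6.96% of the genes ranked. Their median SD was 0.0831, 0.0929, 0.114, 0.175 and 0.142 in that order, against 0.161 over all genes ranked, so the proteasome lay above that median and the other 4 lists below it. Hemocyte, ejaculatory bulb, glia, translation factor and cytoskeleton genes also had 0 members there, of 13, 6, 7, 15 and 6. Lists this small would often hold 0 by chance at a share of 6.96%. The proteasome, testis and cytosolic ribosomal protein lists, of 26 to 34 members, could hold 0 by chance at times as well. The median SD of hemocyte, ejaculatory bulb, glia, translation factor and cytoskeleton genes was 0.174, 0.149, 0.158, 0.109 and 0.159 in that order. Hemocyte genes thus lay above the median of all genes ranked. RpS29 and RpL15 spanned 1.04-fold and 1.06-fold over the 4 pools in the probe sets used. A further bright probe set of RpS29 varied more, at 11.43, 11.59, 11.61 and 11.43 in arrays 1 to 4 (SD 0.0987).

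The largest shares among the 500 most variable genes were those of the fat body, with 8 of 20 members (40%), or 5 without array 3, and of the circadian clock, with 3 of 8 (37.5%). Of these clock genes, tim had an SD of 0.619, or 0.075 without array 4, and Clk was low in array 4. Odorant-binding proteins had 9 of 25 (36%), or 5 without array 1, and the antenna list 6 of 19 (31.6%), or 0 without array 1. Accessory gland genes had 10 of 37 (27%), but 0 without array 4. Cytochromes P450 had 12 of 48 (25%). Cuticle proteins had 7 of 23 (30.4%), or 4 without array 4, and immunity genes 5 of 18 (27.8%), or 3 without either array 1 or array 2. Midgut genes had 8 of 41 (19.5%), glutathione S-transferases 5 of 26 (19.2%), neuron genes 4 of 22 (18.2%) and feeding genes 3 of 12 (25%). Muscle had 3 of 28, or 0 without array 4, and chaperones 2 of 13, or 0 without array 3. Photoreceptor genes had 2 of 19, the Malpighian tubule 2 of 13, or 1 without array 3, glycolysis 1 of 12 and oenocytes 1 of 8. Several of these counts thus rest on a single array.

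The gene of largest spread was Glut4EF, a transcription factor gene, at 6.90, 7.84, 7.26 and 4.49 in arrays 1 to 4 (SD 1.47). Array 4 alone was low, and without it the SD was 0.47. Of its 4 other probe sets 3 were also lowest in array 4, while the fourth read 5.90, 6.62, 6.24 and 5.94. Lsp2, a hexamerin that stores amino acids and is made by the fat body, read 9.07, 5.62, 7.41 and 8.07, a 10.9-fold range (SD 1.45). Each pool differed from the others, and array 2 was the lowest. Obp99b, which the fat body also makes, was lowest in array 2 too, with 7.34, 5.71, 7.12 and 7.64.

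In 11 of the 25 most variable genes both arrays 2 and 4 lay above both arrays 1 and 3, and in 9 of these the widest gap between the 4 values fell there. Over all genes at or above the floor, 26.7% had that order, and in 8.39% the widest gap fell there. Tdh, threonine dehydrogenase, read 5.69, 8.25, 6.37 and 8.69 (SD 1.45). The serpin gene Spn88Eb read 6.50, 8.63, 7.31 and 9.66 (SD 1.40). In both, the lower of arrays 2 and 4 exceeded the higher of arrays 1 and 3. Pfas, an enzyme of purine synthesis, followed the same order at 9.30 ± 0.922, and so did Nmdmc, a mitochondrial enzyme of folate metabolism, with 8.19, 9.49, 8.27 and 10.08. Mal-B2, a maltase, read 8.41, 10.04, 8.87 and 10.27, and the uncharacterised CG10383, the highest of these 9 genes, 8.79, 11.04, 9.71 and 10.99. The other members were CG34136 (SD 1.39), atk, an extracellular leucine-rich repeat protein (SD 1.06), and CG12826 (SD 0.944).

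The opposite order, with both arrays 1 and 3 above both arrays 2 and 4, was seen in 9 of the 25, and in 5 of these the widest gap fell there. The shares over all genes at or above the floor were 14.5% and 4.44%. Cyp4e3 read 10.55, 8.37, 10.48 and 8.81, so that 2 arrays with the same label differed 4.54-fold in a strongly expressed cytochrome P450. Cyp6w1 read 8.33, 6.41, 8.92 and 6.57 (SD 1.25). In both genes the pools of arrays 1 and 3 lay above the other pools without overlap. The chitinase gene Cht5 read 6.40, 4.77, 6.93 and 5.13. The gene obst-A, for a chitin-binding protein, read 7.14, 5.56, 7.33 and 5.75. The fifth was dyw, of the takeout family, with 6.71, 4.91, 7.27 and 5.76.

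**Figure D4:**
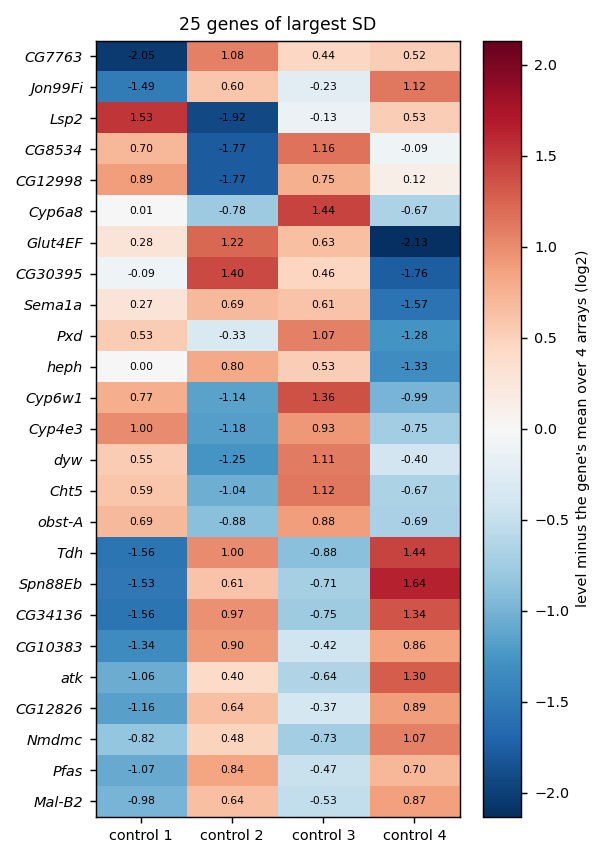
The 25 genes of largest SD, each cell giving the log2 level of 1 untreated control array minus the gene's mean over the 4 arrays (red higher, blue lower). Genes are ordered by which arrays stand apart, and the lowest block, from Tdh to Mal-B2, is high in arrays 2 and 4.

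A single low array was seen in most of the other 11 genes in the plot of the 25 most variable genes, again by the widest gap. Over all genes at or above the floor a single low array was common too, at 12.0%, 5.29%, 6.62% and 11.4% for arrays 1 to 4. Array 4 was low for Glut4EF, for CG30395, for the peroxidase gene Pxd, for Sema1a, an axon guidance semaphorin, and for heph, the polypyrimidine tract-binding protein. CG30395 read 5.13, 6.63, 5.68 and 3.46. Sema1a read 5.42, 5.85, 5.77 and 3.59. The values of heph were 6.21, 7.01, 6.74 and 4.89. Without array 4 the SD fell from 1.33 to 0.757 for CG30395, from 1.06 to 0.225 for Sema1a, from 0.944 to 0.407 for heph and from 1.03 to 0.707 for Pxd. Array 1 was low for CG7763 and for the Jonah protease gene Jon99Fi, which is made in the gut. CG7763 read 3.31, 6.44, 5.80 and 5.88, and without array 1 its SD fell from 1.39 to 0.35. Jon99Fi read 6.15, 8.24, 7.41 and 8.76, so that the other 3 pools differed among themselves as well. Array 2 was low for Lsp2, CG12998 and CG8534. A single high pool was seen in 1 gene, Cyp6a8, with 6.26, 5.48, 7.70 and 5.58. That pattern was more frequent over all genes at or above the floor, at 7.39%, 9.03%, 2.74% and 18.8% for arrays 1 to 4.

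Over longer lists the low array 4 was the most frequent pattern. It described 36 of the 100 most variable genes and 171 of the first 500 (34.2%), against 11.4% of all genes at or above the floor, where the pattern is read from the widest gap between a gene's 4 values. Arrays 2 and 4 high described 23 of the 100, against 8.39% of all genes. Among the 171 genes, 28 have further probe sets at or above the floor, 40 in number, and array 4 was the lowest in 28 of these 40. Its distance below the mean of arrays 1 to 3 had a median of -0.995 in the probe sets used and -0.479 in the other ones. The part that the 18S signal of array 4 or its 3' to 5' difference has in this was not tested. Ranked again without array 4, 55 of the 100 most variable genes remained among the first 100. These patterns were looked for after the values had been seen.

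Some gene lists moved with single arrays. Accessory gland genes were lowest in array 4 in 32 of 37 members, against 24.7% of all genes, with a median deviation from the gene mean of 0.13, 0.18, 0.09 and -0.41 in arrays 1 to 4. The largest case was Spn28F, a seminal fluid serpin, at 9.53, 9.74, 9.44 and 8.11, with an SD of 0.739 over the 4 arrays and 0.153 without array 4. Testis genes did the opposite: 25 of 32 were highest in array 4, against 36.8% of all genes, 0 were lowest there, and the median deviations were -0.02, -0.06, -0.06 and 0.18.

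Neuron genes were highest in array 2 in 17 of 22 members, against 29.1% of all genes, and lowest in array 4 in 14, against 24.7%. nSyb, the synaptic vesicle protein synaptobrevin, read 7.89, 8.10, 7.82 and 6.73, and without array 4 its SD fell from 0.616 to 0.147. Antenna genes were lowest in array 1 in 11 of 19, against 33.8% of all genes. Obp83b, an odorant-binding protein of antennal sensilla, read 6.48, 7.75, 7.98 and 7.93. Proteasome genes moved little but together: 25 of 26 were lowest in array 2, against 18.7% of all genes, with Rpn3 at 7.98, 7.45, 7.96 and 8.09. Mitochondrial ribosomal protein genes were lowest in array 2 in 48 of 68. The median deviation in array 2 was -0.22 for the proteasome and -0.12 for mitochondrial ribosomal proteins.

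**Figure D5:**
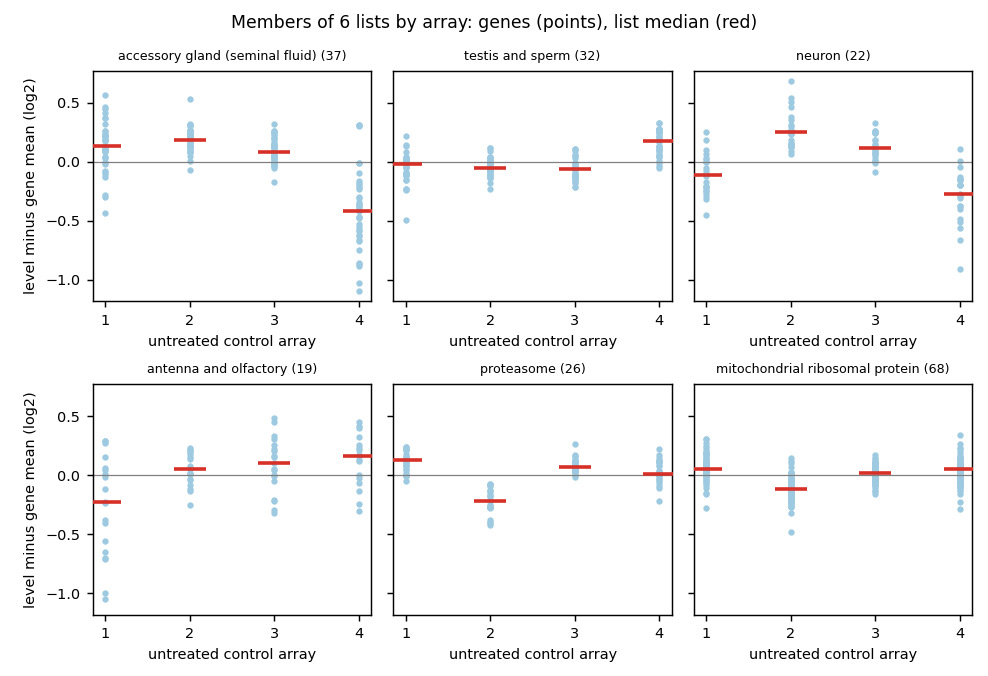
Log2 level minus the gene's mean in each untreated control array for the members at or above the floor of 6 lists (points, number in parentheses), with the list median in red. Accessory gland genes fall in array 4, where testis genes rise, and proteasome genes dip in array 2; the 6 lists were picked after their values had been seen.

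The plot of lists by array shows how far the members of a list moved together. In the antenna panel the median deviation in array 1 was -0.23, close to that of the proteasome in array 2, but its members scatter widely on both sides of 0. The proteasome panel shows a small shift with little scatter among the genes.

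Clock genes, whose transcripts cycle over the day, also differed between pools. The core gene tim read 7.50, 7.58, 7.65 and 8.81, with array 4 apart from 3 pools that agree closely, and without array 4 its SD fell from 0.619 to 0.08. Its second probe set, at a low level, read 3.34, 3.76, 3.09 and 4.09. The clock repressor vri read 6.78, 8.14, 7.40 and 8.09, higher in arrays 2 and 4. Chosen after its values were seen, Clk, the activator of tim, read 6.53, 6.58, 6.62 and 5.58, lowest where tim was highest. The clock list as a whole did not stand apart in array 4. Of its 8 members at or above the floor, 2 were highest and 2 lowest there, with a median deviation of 0.00424. Another member, cwo, read 7.23, 7.83, 7.56 and 7.56. No label read here gives the time of day of collection.

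The genes that varied in the control pools tended to vary in other groups too, which the ranking did not use. Of the 100 genes of largest SD, 71 exceeded the 90th percentile of SD among the 4 untreated Dsup lines, which 719 of all 7189 genes exceed by construction. The same was true of 61 among the irradiated Dsup lines and 45 among the 3 irradiated controls, whose arrays share many identical values. Lsp2 had an SD of 1.45 in the control pools and 0.376 in the untreated Dsup lines, just under their 90th percentile of 0.379, and it exceeded that percentile in both irradiated groups. Mal-B2 varied in both, with 7.06, 9.08, 6.86 and 9.09 in the untreated Dsup lines 1 to 4. Dsup arrays are different lines, so their spread holds differences between lines as well as between pools and arrays.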

How the data were processed

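RNA of whole male flies was labelled with biotin through a 3' labelling kit and hybridised to 3' expression arrays, per the labels' protocols. The deposited values are log2 probe set levels made by the authors, read as log2 from their range, while how probes were summarised and normalized is not given in the sources used here. Scanner intensities and detection calls were not analysed. The array means of the 4 untreated controls lay between 4.62 and 4.64, and the 100th gene by level stood at 11.15 here, 10.58 in untreated Dsup lines and 11.60 in irradiated controls, so levels were not set across groups. The members and the gene lists were chosen with earlier results of these data known.

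Values were read with Python 3.11.15 and pandas 2.3.3, and means, sample SDs and gap ratios computed with numpy 2.4.6. Each gene took the probe set of highest mean, 1094 genes having several, and 0 symbols needed updating. Adjacent genes were taken from RefSeq's Release 6 annotation. Spread was ranked over genes whose mean reached the 40th percentile, a log2 level of 5.01. The names given are those of the 25 highest and the 25 most variable genes, and of each list the 3 highest members and the most variable one. Of 36 lists, 2 matched no symbol of the table. No comparison was tested. The ranking was checked on simulated data. Alternatives were other scalings, another probe set rule, other floors and spread measures, and leaving out each array.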

Additional observations from a re-analysis of the deposited data

Results flagged for a closer look

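In each item here, 1 of the 4 untreated control arrays lay far from the other 3: the gap to its nearest neighbour made up more of the whole range than the 95% critical value of Dixon's ratio for 4 values allows. Chance gives this in about 1 of 20 groups, and it was seen in 7 of 151 named genes, or 4.64%, and in 450 of the 7189 genes at or above the floor, or 6.26%. Array 4 was the distant array for the clock gene tim (ratio 0.886), for the Turandot gene TotE (0.927) and for the larval glue gene Sgs8 (0.844), high in each, the last 2 below the floor. Array 1 was low for Obp83b (0.844) and SERCA (0.831), array 2 low for Rpn6 (0.844), and array 3 high for the co-chaperone gene DnaJ-1 (0.928), which read 8.56, 8.57, 9.70 and 8.64.

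Array 4 was low in all 3 probe sets of 18S ribosomal RNA, with ratios of 0.910 at the 3' end, 0.878 in the middle and 0.872 at the 5' end. The medians of list deviations also passed for the accessory gland (0.836, array 4 low) and the testis (0.838, array 4 high). Both lay only just above the critical value. The median of glycolysis passed as well (0.965, array 1 high, by 0.0554). Medians of many lists were looked at, so some could pass by chance alone. The list medians that passed share array 4 with the 18S signal, apart from glycolysis, and what links them was not tested.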

How the results depend on the processing

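Of the 100 highest genes, between 94 and 97 were found again when 1 array was left out, 93 with the median over a gene's probe sets, and 100 under each rescaling. Of the 100 most variable genes, 94 and 95 were found again after quantile normalization and median centring, and between 55 and 81 when 1 array was left out, with the lowest overlap of 55 without array 4. Members of tissue lists in the top 500 by level numbered 87, and 85 to 88 under the alternatives. Members of any list in the top 500 by spread numbered 81, and 68 to 93. With the 100 most variable genes chosen anew under each setting, 59 to 82 of them exceeded the 90th percentile of spread in the untreated Dsup lines, against 71. This check, and averaging linear values for the tissue lists, were added after seeing the data. Among 151 named genes, the SD moved beyond its interval in 20, 11, 8 and 26 without arrays 1 to 4, and the mean level in 6 with the median over probe sets. No paired analysis was possible because a single group was described and nothing was compared. With 4 arrays of 1 group, the gap of a single array from the others was read from Dixon's ratio alone, and without detection calls a low level does not show that a gene is silent.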

Other observations

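The order of arrays recurred in a group the ranking did not use. Of the 100 most variable genes, 31 had both arrays 2 and 4 above both arrays 1 and 3 of the control, against 26.7% of all genes. In 23 of these 31 genes (74.2%) the untreated Dsup lines of the same numbers fell in that order too, against 43.9% of the 1920 genes with that order overall. Nmdmc read 4.93, 8.71, 6.12 and 7.84 in untreated Dsup lines 1 to 4, CG10383 6.57, 9.12, 7.23 and 9.80, and CG34136 4.43, 7.15, 5.70 and 7.73. In each, lines 2 and 4 lay above lines 1 and 3. The opposite order was seen in 26 of the 100 genes, against 14.5% of all genes, and was shared by the Dsup lines in 16 of them (61.5%), against 46.5% of all genes with that order. The labels state no link between a control pool and a Dsup line of the same number. The 18S 3' probe set, an array control, read 11.80, 10.81, 11.68 and 10.86 in those lines, lower in lines 2 and 4, whereas in the controls array 4 alone was low. The bioB 5' spike read 3.36, 5.09, 4.33 and 5.04 in those lines, higher in lines 2 and 4, and 4.04, 4.20, 5.24 and 5.23 in the controls, higher in arrays 3 and 4. The part of these array controls in the shared order was not tested.

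Probe sets with no gene symbol held 32 of the 100 highest places, against 25.1% of all probe sets. They held 20 of the 100 most variable places among probe sets at or above the floor, against 8.16% of those. Array 4 was low in 17 of the 20, against 16.8% of all such probe sets without a symbol. Some genes below the floor varied more than any above it, and 1 of them, chosen after its values were seen, was CG34217 at 3.76, 3.25, 7.35 and 3.54.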
